A study of Drosophila melanogaster with 8 samples.

Results

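The Cpr and Twdl cuticle protein genes were followed in adult Drosophila melanogaster heads. A probe set entered when its only current gene symbol began with Cpr and a number, or with Twdl, leaving aside Cpr97Ea and TwdlH. The rule gave 89 of the 18769 probe sets that are not array controls, for 88 of the 11982 genes named on the array, of which 66 probe sets (65 genes) were Cpr and 23 were Twdl. Cpr47Ef alone had 2 probe sets.

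The insect cuticle is made of chitin fibres embedded in protein, laid down by the epidermis and hardened by cross-linking. Cpr proteins carry the Rebers and Riddiford domain, which binds chitin, and form the largest family of cuticle proteins in insects. Twdl proteins, the Tweedle family, are a separate class of chitin-binding cuticle proteins known for their part in body shape, since a mutant form of TwdlD gives short, stout larvae and pupae. In the fly head the cuticle covers the capsule, the bristles, the mouthparts and the antennae, and the corneal lens of each ommatidium is itself a cuticular structure in which the products of Cpr72Ec and Cpr66D have been found.

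Head RNA of mixed male and female adults was hybridised to 8 single-colour Affymetrix arrays, 2 for each of 4 groups. The controls were w1118 flies, for which no driver or transgene is named. In the other flies the heat-shock driver Hsp-GAL4 was combined with a transgene encoding the coactivator and phosphatase Eyes absent (EYA), in the form UAS-EYA-wildtype or with a point mutation, UAS-EYA-D493N in the next group and UAS-EYA-E728Q in the last. D493N lowers the phosphatase activity and E728Q leaves little or none. All flies, controls included, received 1 h at 37 C and 3 h of recovery at 25 C. The sources used here give neither the age of the flies nor the number of transgenic lines. A heat-shock driver is not limited to a tissue, and driver, transgene insertion and strain cannot be told apart from EYA in a comparison with w1118. Each RNA came from 200 heads, and nothing says that both samples of a group stem from separate cultures. The p-values therefore cover only the spread between these samples, which may be technical.

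Signals are the deposited intensities, and the median of every array was 100. Markers of photoreceptors (trp, inaD and chp, 3 of 5 measured), neurons (3 of 4) and glia (3 of 3) all had means above 100. So did all corneal lens genes measured (3 of 4), which were retinin, Cpr66D and Cpr72Ec. Cpr66D and Cpr72Ec are themselves among the members followed here. None of 3 midgut and none of 3 testis and accessory gland markers did. The midgut gene Jon65Aiii, however, read 478 on E728Q replicate 2 and 2.10 to 55.6 on the other arrays. In the ovary list 2 of 3 genes were measured. Yp1 had a mean of 29486, and osk a mean of 79.7, with 176 on control replicate 2 and 205 on wild-type EYA replicate 2. The 2 genes lie far apart, so no presence of ovary RNA was read from Yp1. The probe set of eya read 991 and 918 in control heads, 916 and 915 in wild-type EYA heads, 1240 and 1554 in D493N heads, and 1386 and 1140 in E728Q heads. Of its 3 differences from control, D493N was called (log2 difference 0.45, limma, adjusted p = 0.0235) and wild-type EYA (-0.04) and E728Q (0.35) were not. The sources used here do not say whether that probe set lies in the transgene.

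D493N replicate 1 stood apart from the other arrays. Its 18S rRNA control signals were 5619 for the 5' and 11249 for the 3' probe set, against at most 2196 and 5524 elsewhere. The Act5C end controls read 374 (5') and 705 (3') there, against 362 to 653 and 637 to 1035 elsewhere. A pair of GAPDH end controls read 5497 (5') and 11279 (3'), against 5909 to 7340 and 11095 to 12867. An Act5C probe set for the middle of the transcript read 1086, against 1809 to 2404. The summed muscle markers (2 of 3 measured) read 215 on that array and 609 to 1179 on the others. That sum was nearly all Act88F, since TpnC4 had a mean of 10.3. The summed photoreceptor markers read 34123 against 38312 to 47324. Of these, trp and chp were lowest on that array. The third, inaD, was not, with 7287 there, 6946 on control replicate 2 and 6925 on wild-type EYA replicate 2. The cuticle genes moved with this array, as described below, so values are also given without it where a call or the size of a difference turned on it. The part of RNA quality or of tissue makeup in those results was not tested.

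Most cuticle genes had low signals in these heads. A mean signal above 100 over the 8 arrays, the mark used here for expression, was reached by 22 of the 89 probe sets (24.7%), against 9436 of all 18769 (50.3%). They were 20 of 66 Cpr probe sets (30.3%) and 2 of 23 Twdl probe sets (8.70%), TwdlG and TwdlT. The other 67 had means between 3.13 and 90.4, with a median of 25.7. Of the 22, 17 were above 100 on each of the 8 arrays. Another 6 probe sets, Cpr64Ad, Cpr67Fb, Cpr47Ea, Cpr64Ab, Cpr11A and Cpr60D, passed 100 on at least 1 array and not in the mean.

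The expressed genes spanned a wide range of signal. Cpr65Au had a mean of 10892, and Cpr67B, Cpr49Ae, Cpr100A, Cpr72Ec, Cpr62Bc, Cpr49Ag, Cpr97Eb, Cpr11B and Cpr62Bb had means above 1000 as well. The signal of a probe set also depends on its sequence, so these values are listed and not ranked between genes. Cpr73D, Cpr47Ee, Cpr51A, TwdlT, Cpr47Ef, TwdlG, Cpr92F, Cpr76Bd, Cpr64Aa, Cpr50Cb, Cpr49Af and Cpr66D made up the rest. The members next above the mark were Cpr66D with a mean of 128 (85.6 to 182 over the arrays), Cpr49Af with 165 (70.5 to 250.3) and Cpr50Cb with 206 (41.7 to 347). Next below it were Cpr64Ad with 90.4 (65.7 to 118), Cpr67Fb with 82.7 (61.8 to 102) and Cpr47Ea with 82.3 (23.7 to 104). Each of these members crossed the mark between arrays of a group or between groups, so membership near it is not firm. Cpr49Af was below it on both D493N arrays.

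Cpr and Twdl genes lie in runs along the chromosomes, and in most runs only some members were expressed in the head. With at most 5 other genes between neighbours, 15 runs of at least 2 members held 63 genes, 14 of them expressed, and 10 of the runs held an expressed gene. Of the 25 genes that stood alone, 8 were expressed. In the run at 47E on chromosome arm 2R, Cpr47Ee and Cpr47Ef were expressed out of 7 genes. At 49A, also on 2R, Cpr49Ae, Cpr49Af and Cpr49Ag were expressed out of 8. On 3L, Cpr62Bb and Cpr62Bc were expressed out of 3, Cpr64Aa out of 4, Cpr65Au out of 3, Cpr72Ec out of 3 and Cpr76Bd out of 4. The longest run, 11 Twdl genes on 3R that include TwdlD, had no expressed member, nor had the 4 Twdl genes on the X. TwdlG was expressed out of a run of 3 on 3R with TwdlF and TwdlV.

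**Figure D1:**
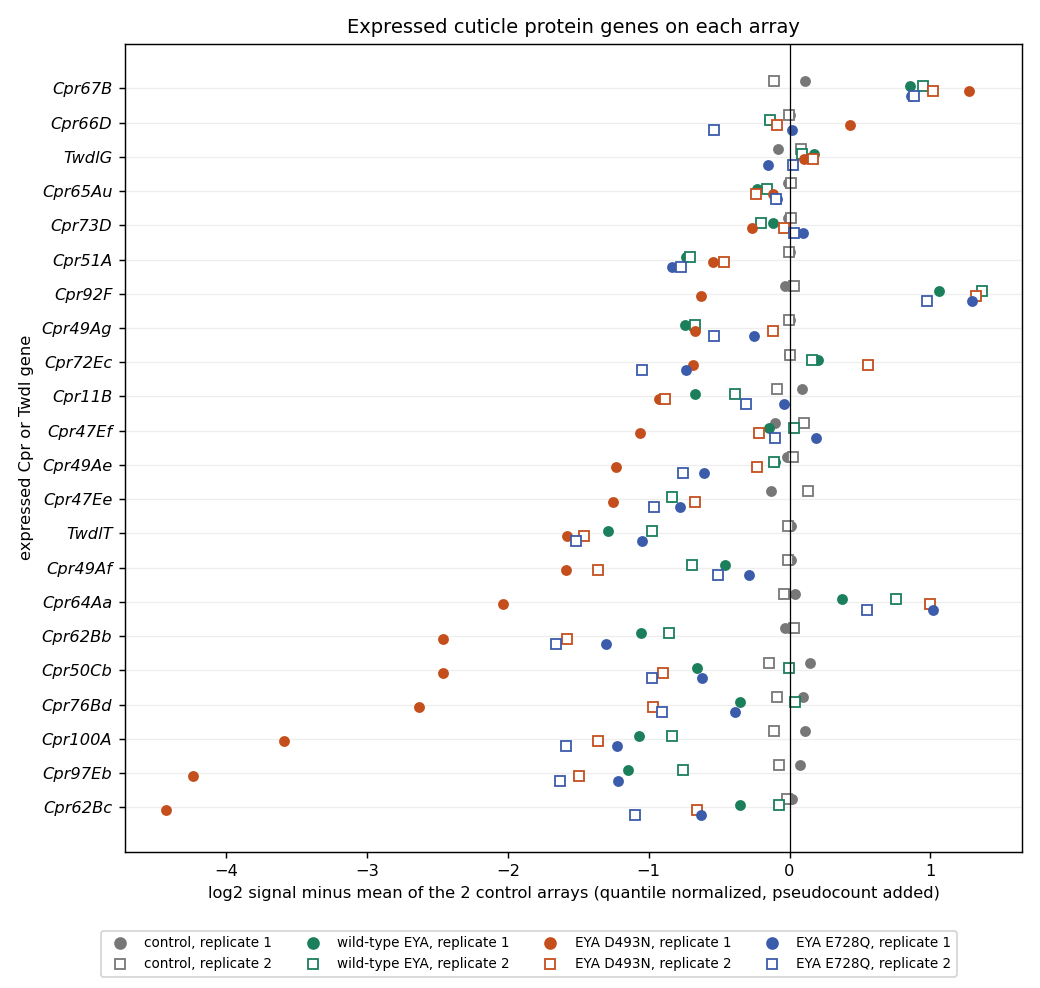
Log2 signal of the 22 expressed Cpr and Twdl genes on each of the 8 arrays, as the difference from the mean of the 2 control arrays (horizontal axis, quantile normalized, pseudocount added); filled circles are replicate 1 and open squares replicate 2, and colours mark the 4 groups. Genes are ordered from top to bottom by falling value on D493N replicate 1, so those lowest on that array stand at the bottom. Most points of the EYA groups lie to the left of the control arrays, and Cpr67B lies to the right. For the genes at the bottom, D493N replicate 1 lies further left than the other arrays.

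Differences between groups were tested with limma in a single model over the 8 arrays, on log2 of the quantile normalized signal plus 17.5. The 11261 probe sets of highest mean were tested, with p-values adjusted over all of them by Benjamini and Hochberg, and those with an adjusted p under 0.05 were called. That filter kept 38 of the 89 members, 33 Cpr and 5 Twdl, including all 22 expressed ones, so counts below describe the 38 and not the families. The 3 comparisons with control share the same 2 control arrays, so their lists of calls are not independent of each other. Across the 4 groups the F-test called 10 of the 38 (26.3%), where 25.4% of all tested probe sets were called.

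Against control, the called members were lower with each transgene except for a single gene. With wild-type EYA 10 of 38 were called (26.3%), 1 higher and 9 lower, where 22.4% of all tested probe sets were called (11.4% higher and 11.0% lower). With D493N 12 were called (31.6%), 1 higher and 11 lower, where 28.0% of all were called (14.0% higher and 14.0% lower). With E728Q 5 were called (13.2%), 1 higher and 4 lower, where 23.5% of all were called (11.8% higher and 11.7% lower). The share of members called was thus near that of all probe sets with wild-type EYA and D493N and below it with E728Q on all 8 arrays. Without either D493N array the E728Q share was 42.1%, above the 31.2% of all. The share called lower was 23.7%, 28.9% and 10.5% of the members. The median log2 difference over the 38 was -0.18, -0.37 and -0.37, and over all tested probe sets -0.03, -0.02 and -0.00. Over the 22 expressed genes it was -0.20, -0.69 and -0.52. In RNA of whole heads, fewer cells of a type and less RNA per cell cannot be told apart. Summed fat body markers (4 of 4 measured, all above 100) read 17753 and 15814 in control heads and 7963 to 13405 on the arrays with a transgene, and summed glia markers 22924 and 21510 against 17414 to 19039. Of the fat body genes, fon, fit and Cyp4g1 (the last is also an oenocyte gene) were below control on each array with a transgene, while Lsp2 was above it, with 1226 and 1423 in control heads and 2934 to 5090 on the others. Their part in these differences was not tested.

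Cpr47Ee, Cpr51A, Cpr62Bb and TwdlT were lower and Cpr67B was higher with all 3 transgenes. For TwdlT, a Tweedle cuticle protein, the signals were 801 and 745 in control heads, 309 and 383 in wild-type EYA heads, 258 and 278 in D493N heads, and 379 and 264 in E728Q heads. All 6 arrays with a transgene lay below both control arrays. The log2 difference from control was -1.13 (SE 0.17, limma, adjusted p = 0.00139) with wild-type EYA, -1.52 (adjusted p = 0.000214) with D493N and -1.28 (adjusted p = 0.000701) with E728Q.

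Cpr62Bb, a Cpr gene next to the also expressed Cpr62Bc, had signals of 2589.8 and 2502 in control heads, 1197 and 1319 in wild-type EYA heads, 457 and 859 in D493N heads, and 1037 and 796 in E728Q heads. No array with a transgene reached the lower of the control arrays. Its log2 differences were -0.96 (SE 0.24, limma, adjusted p = 0.022), -2.02 (adjusted p = 0.000371) and -1.48 (adjusted p = 0.00255). The wild-type difference was no longer called without control replicate 1 (adjusted p = 0.0982), without control replicate 2 (adjusted p = 0.112) and without either wild-type array.

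Cpr51A stands alone on 2R. Its signals were 751 and 699 in control heads, 433 and 433 in wild-type EYA heads, 517 and 546 in D493N heads, and 413 and 429.7 in E728Q heads. Replicates were close in every group, and the control arrays did not overlap with any other. The log2 differences were -0.72 (SE 0.09, limma, adjusted p = 0.00058), -0.50 (adjusted p = 0.0034) and -0.80 (adjusted p = 0.000322).

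Cpr47Ee, in the run at 47E, read 860.5 and 974 in control heads, 512 and 497 in wild-type EYA heads, 396 and 589.8 in D493N heads, and 548 and 474 in E728Q heads. Both control arrays lay above the other 6. The log2 differences were -0.83 (SE 0.18, limma, adjusted p = 0.0104), -0.96 (adjusted p = 0.00408) and -0.87 (adjusted p = 0.00809). Without control replicate 2 the calls with wild-type EYA (adjusted p = 0.0881) and E728Q (adjusted p = 0.0726) were lost, and the former also without either wild-type array and the latter without E728Q replicate 2.

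Cpr67B, a Cpr gene on 3L with no family neighbour, went the other way. Its signals were 4065 and 3155 in control heads, 6265 and 6184 in wild-type EYA heads, 8262 and 7609.7 in D493N heads, and 6482 and 6425 in E728Q heads. All arrays with a transgene lay above both control arrays, and the mean rose from 3610.1 ± 643 (SD, n = 2) to 6225 ± 56.7, 7936 ± 461 and 6453 ± 39.7 (SD, n = 2 each). The log2 differences were 0.90 (SE 0.10, limma, adjusted p = 0.000312), 1.15 (adjusted p = 6.8e-05) and 0.87 (adjusted p = 0.000373).

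**Figure D2:**
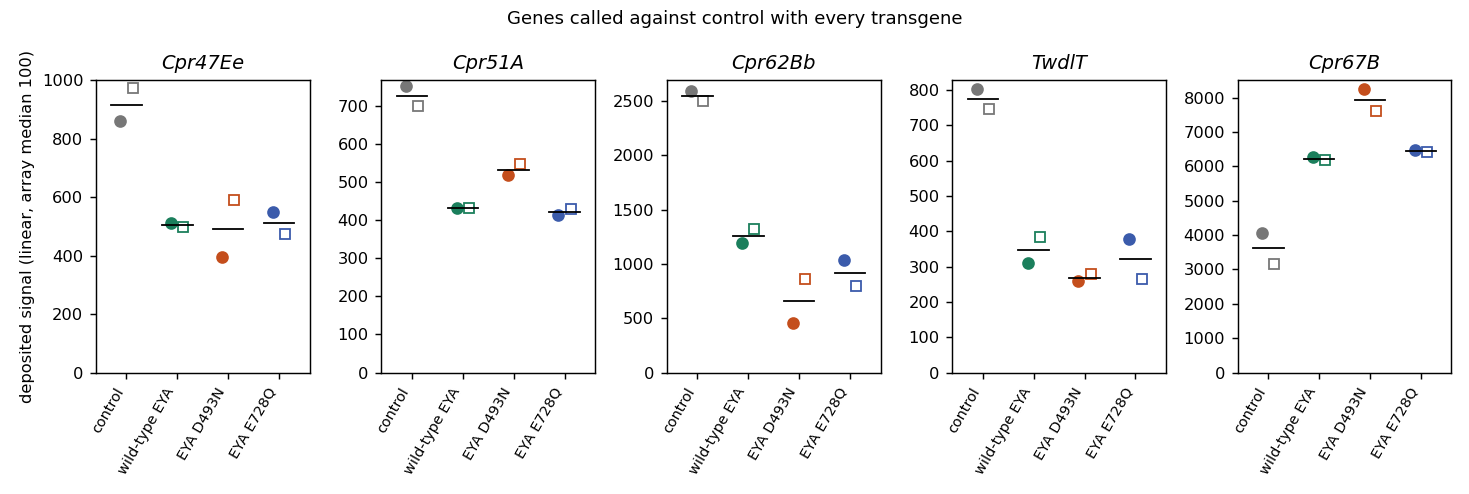
Deposited signal (linear scale from 0, array median 100) of the 5 genes called against control with each of the 3 transgenes, by group; filled circles are replicate 1, open squares replicate 2 and bars the mean of 2 arrays. The control arrays of Cpr47Ee, Cpr51A, Cpr62Bb and TwdlT lie above all others, and those of Cpr67B below all others.

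Another 3 genes were called with wild-type EYA and with D493N. Cpr11B, on the X, read 2076 and 1701 in control heads, 1183 and 1381 in wild-type EYA heads, 1032 and 1058 in D493N heads, and 1882 and 1531 in E728Q heads. The wild-type and D493N arrays lay below the controls, while the E728Q arrays overlapped with them. Its log2 difference was -0.53 with wild-type EYA (SE 0.12, limma, adjusted p = 0.0155), not called without the first control (adjusted p = 0.125) or the first wild-type array, and -0.91 with D493N (adjusted p = 0.00077).

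Its neighbour Cpr11A, under the mark for expression, read 191 and 139.7 in control heads, 53.8 and 30.7 in wild-type EYA heads, 8.60 and 58.0 in D493N heads, and 61.8 and 78.0 in E728Q heads. The control arrays were the only ones above 100. The log2 difference was -1.61 with wild-type EYA (SE 0.46, limma, adjusted p = 0.0352) and -2.05 with D493N (adjusted p = 0.00999). The D493N value was -1.29 when D493N replicate 1 was dropped and -2.82 when replicate 2 was, and it was not called without control replicate 1 (adjusted p = 0.0796). The wild-type call was lost without any of the control, wild-type or E728Q arrays, with a highest adjusted p of 0.194.

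Cpr49Af, at 49A, read 250.3 and 235 in control heads, 173 and 142 in wild-type EYA heads, 70.5 and 85.4 in D493N heads, and 198 and 167 in E728Q heads. The D493N arrays were the lowest of all, and the 4 other arrays with a transgene lay between them and the controls. Its log2 difference was -0.58 with wild-type EYA (SE 0.17, limma, adjusted p = 0.0381), lost without any control, wild-type or E728Q array (highest adjusted p = 0.209), and -1.47 with D493N (adjusted p = 0.000267).

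With wild-type EYA alone, Cpr49Ag and Cpr65Au were called. Cpr49Ag read 3237 and 3007 in control heads, 1826 and 1827 in wild-type EYA heads, 1991 and 2975 in D493N heads, and 2639 and 2147 in E728Q heads, a log2 difference of -0.71 (SE 0.16, limma, adjusted p = 0.014). Its wild-type arrays were the lowest, and all 6 arrays with a transgene lay below the controls. With E728Q its log2 difference was -0.39, called with only the control and E728Q arrays fitted (limma, adjusted p = 0.016). With D493N it was -0.40, with -0.12 without D493N replicate 1 and -0.67 without replicate 2. Cpr65Au read 12279 and 11922 in control heads, 9931 and 9492 in wild-type EYA heads, 10424 and 11142 in D493N heads, and 11218 and 10727 in E728Q heads. Its arrays with wild-type EYA were again the lowest, by a log2 difference of -0.20 (SE 0.06, limma, adjusted p = 0.0498). With D493N the difference was -0.18 (limma, adjusted p = 0.0633), with -0.24 without D493N replicate 1 and -0.12 without replicate 2. With E728Q it was -0.09. Both wild-type calls were lost without either control array or either wild-type array, and that of Cpr65Au also without either E728Q array. Of the 10 calls with wild-type EYA, 3 or 4 were left without any control or wild-type array, and Cpr67B, Cpr51A and TwdlT were among them each time.

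The next 4 genes, Cpr100A, Cpr97Eb, Cpr76Bd and Cpr50Cb, were called with D493N and not with the other transgenes, and each had its lowest signal on D493N replicate 1. Cpr100A read 9948 and 8201 in control heads, 4108 and 4439 in wild-type EYA heads, 742 and 3537 in D493N heads, and 3718 and 2881 in E728Q heads. Cpr97Eb read 3558 and 2974 in control heads, 1439 and 1785 in wild-type EYA heads, 154 and 1173 in D493N heads, and 1393 and 1036 in E728Q heads. For both genes all 6 arrays with a transgene were below the controls, and the D493N replicates differed from each other more than any other pair. Cpr76Bd read 411 and 342 in control heads, 290.3 and 378 in wild-type EYA heads, 46.9 and 186 in D493N heads, and 286 and 196 in E728Q heads. Cpr50Cb read 347 and 269 in control heads, 188 and 298 in wild-type EYA heads, 41.7 and 158 in D493N heads, and 195 and 147 in E728Q heads. For these 2 genes the wild-type arrays overlapped with the controls, and the D493N and E728Q arrays did not. With only the control and E728Q arrays fitted, both genes were called lower with E728Q. The log2 differences were -0.64 for Cpr76Bd (limma, adjusted p = 0.0311) and -0.80 for Cpr50Cb (limma, adjusted p = 0.0107). With only the control and wild-type arrays fitted, neither was called.

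With all arrays, the log2 difference with D493N was -2.47 for Cpr100A (SE 0.55, limma, adjusted p = 0.00951), -2.87 for Cpr97Eb (SE 0.67, adjusted p = 0.0124), -1.80 for Cpr76Bd (SE 0.44, adjusted p = 0.0157) and -1.68 for Cpr50Cb (SE 0.44, adjusted p = 0.0205). Without D493N replicate 1 the differences were smaller, at -1.36, -1.50, -0.97 and -0.90. That fit holds 1 D493N array, taken to vary like the other groups, so it cannot show whether the calls hold. Without D493N replicate 2 they were -3.59, -4.24, -2.63 and -2.46. Without control replicate 1 all 4 calls were lost (adjusted p = 0.0662, 0.0746, 0.093 and 0.121), and without control replicate 2 those of Cpr97Eb (0.0615), Cpr76Bd (0.0655) and Cpr50Cb (0.0689).

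The 22 expressed genes differed between the D493N replicates far more than between the replicates of other groups. The log2 difference of replicate 1 from replicate 2 had a median of 0.01 in control (from -0.27 to 0.29), -0.14 with wild-type EYA, -0.71 with D493N (from -3.77 to 0.51) and 0.30 with E728Q. Replicate 1 was the lower of the D493N arrays for 19 of the 22 genes (86.4%, beside 48.9% of all tested probe sets). It was over 2-fold lower for 8 of them (36.4%), where 167 of all 11261 tested probe sets (1.48%) were. The median over all tested probe sets was 0.01 in that group, and the 5th to 95th percentiles were -0.55 to 0.58. No expressed gene differed over 2-fold between the replicates of another group. A mostly shared direction was not particular to D493N. Replicate 1 was lower for 16 of the 22 with wild-type EYA and for 3 with E728Q, and for 9 in control. The 8 genes were Cpr62Bc (-3.77), Cpr64Aa (-3.04), Cpr97Eb (-2.74), Cpr100A (-2.23), Cpr92F (-1.95), Cpr76Bd (-1.67), Cpr50Cb (-1.56) and Cpr72Ec (-1.24). On normalized values Cpr67B (0.26), Cpr65Au (0.12) and Cpr66D (0.51) were higher on replicate 1. The deposited signal of Cpr65Au was lower there, at 10424 against 11142. Of the 167 probe sets, 10 were tested Cpr or Twdl members, 4 other cuticle protein genes and 7 genes of chitin synthesis and modification.

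**Figure D3:**
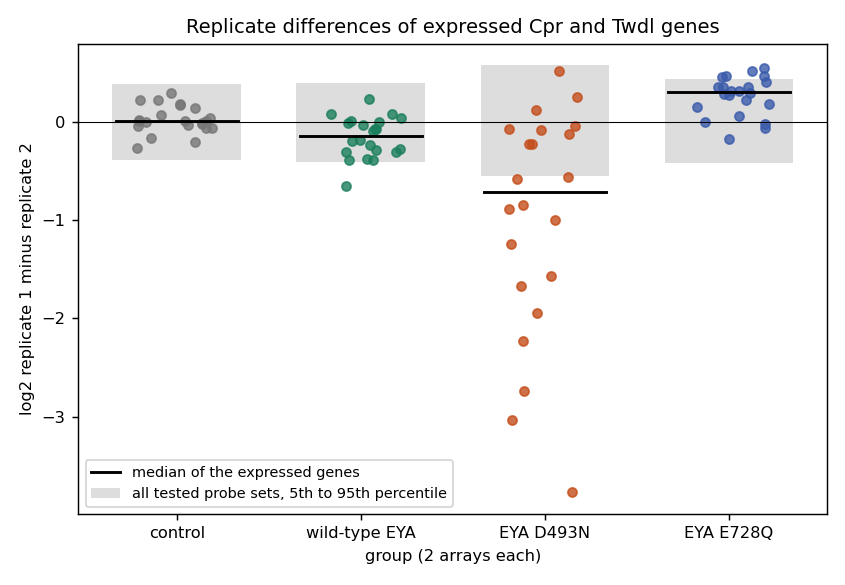
Log2 difference of replicate 1 from replicate 2 (vertical axis) in the 4 groups for the 22 expressed Cpr and Twdl genes (points), with their median (bar) and the 5th to 95th percentile of all 11261 tested probe sets (grey box). The D493N points reach down to -3.77 with a median of -0.71, while those of the other groups stay mostly within the box.

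The array medians of the 22 genes show the same spread. Set against the control mean, the median log2 difference was -0.35 and -0.15 on the wild-type arrays, -1.15 and -0.35 on the D493N arrays, and -0.34 and -0.65 on the E728Q arrays. All 6 medians were below 0, and without D493N replicate 1 the others lay between -0.65 and -0.15.

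The model pools the spread of the 4 groups for each gene, so the D493N replicates enter the error of every comparison. Leaving out 1 of them takes their spread out of that error. The D493N comparisons then rest on 1 array, taken to vary like the other groups. Calls in them do not show that a difference holds. Without D493N replicate 1, 14 of the 38 members (36.8%) were called with wild-type EYA, where 30.4% of all tested probe sets were called. With D493N 18 were called (47.4%, 27.4% of all) and with E728Q 16 (42.1%, 31.2% of all). Without D493N replicate 2 they were 13, 20 and 16 (34.2%, 52.6% and 42.1%), where 30.4%, 33.2% and 31.2% of all were called. Each of the 10, 12 and 5 members called on all 8 arrays remained called in both cases.

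**Figure D4:**
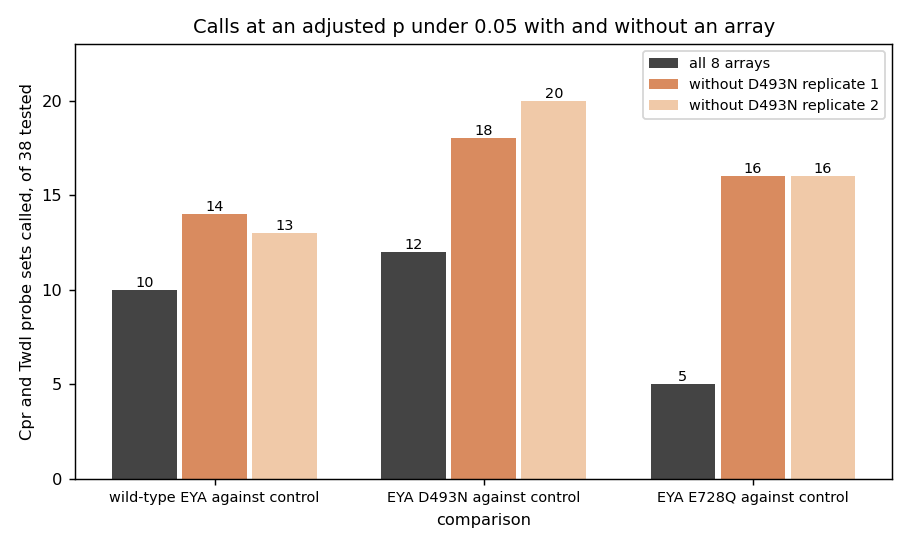
Number of the 38 tested Cpr and Twdl probe sets called against control at an adjusted p under 0.05 (vertical axis, from 0) in each comparison, on all 8 arrays and without D493N replicate 1 or 2. E728Q went from 5 to 16 calls without either D493N array, wild-type EYA from 10 to 14 or 13, and D493N from 12 to 18 or 20.

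Cpr100A and Cpr97Eb joined the calls with wild-type EYA and with E728Q in this way. For Cpr100A the log2 difference with wild-type EYA was -0.95, with an adjusted p of 0.269 on all arrays and 0.000392 without D493N replicate 1 (limma). With E728Q it was -1.40, with 0.103 on all arrays and 3.54e-05 without that array. For Cpr97Eb it was -0.95 with wild-type EYA (0.373 and 0.00125) and -1.42 with E728Q (0.173 and 0.000104). The fold differences did not depend on the D493N arrays, and the standard error did.

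Cpr92F read above control on most arrays with a transgene. Its signals were 196 and 198 in control heads, 428 and 520.3 in wild-type EYA heads, 123 and 536 in D493N heads, and 524 and 406 in E728Q heads. All arrays with a transgene were above the controls except D493N replicate 1, which was below them. On all arrays the log2 differences of 1.21, 0.35 and 1.14 were not called (limma, adjusted p = 0.115, 0.65 and 0.135). When D493N replicate 1 was left out they were 1.21, 1.32 and 1.14. With only the arrays of the groups compared, the wild-type and E728Q values were called (limma, adjusted p = 0.000231 and 0.000691). The D493N value was not (limma, adjusted p = 0.716). Without D493N replicate 2 the D493N value turned to -0.63.

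Cpr64Aa had the same layout at lower signal, with 174 and 159 in control heads, 219.7 and 286 in wild-type EYA heads, 28.0 and 355 in D493N heads, and 361 and 252 in E728Q heads. D493N replicate 1 was again the only array with a transgene below the controls. Its log2 differences of 0.56, -0.52 and 0.78 were not called on all arrays. With only the arrays of the groups compared, the wild-type and E728Q values were called higher (limma, adjusted p = 0.0312 and 0.0123). The D493N value was 1.00 with D493N replicate 1 left out and -2.04 with replicate 2 left out, so its direction rested on which array was kept.

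Cpr62Bc, the neighbour of Cpr62Bb, read 5254 and 4701 in control heads, 3726 and 4161 in wild-type EYA heads, 209 and 3167 in D493N heads, and 3148 and 2237 in E728Q heads. All arrays with a transgene were below the controls, and the D493N arrays differed most. Its log2 differences of -0.21, -2.54 and -0.87 were not called on all arrays (limma, adjusted p = 0.9, 0.0698 and 0.561). Leaving out D493N replicate 1 gave a D493N value of -0.66. With only the control and E728Q arrays fitted, the E728Q value of -0.87 was called (limma, adjusted p = 0.0021).

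Both corneal lens genes were measured. Cpr72Ec read 4382 and 4117 in control heads, 4716 and 4243 in wild-type EYA heads, 2613 and 6485 in D493N heads, and 2523 and 2021 in E728Q heads. The E728Q arrays were the lowest, the wild-type arrays overlapped with control, and the D493N arrays lay on both sides. With E728Q the log2 difference was -0.89 (limma, adjusted p = 0.0734), and without D493N replicate 1 the adjusted p was 7.58e-05. With D493N it was -0.06, with 0.56 without replicate 1 and -0.69 without replicate 2. Cpr66D read 134 and 129.8 in control heads, 117 and 119.5 in wild-type EYA heads, 182 and 123 in D493N heads, and 133 and 85.6 in E728Q heads, with overlap between D493N, E728Q and control and no call (log2 differences -0.14, 0.17 and -0.26). No test set these genes against each other. The 3 measured lens markers, Cpr72Ec, Cpr66D and retinin, together summed to between 24035 and 34393 on the arrays.

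Cpr49Ae read 5753 and 5515 in control heads, 4920.2 and 4551 in wild-type EYA heads, 2361 and 4842 in D493N heads, and 3609 and 3194 in E728Q heads. All arrays with a transgene lay below the controls, with log2 differences of -0.11, -0.73 and -0.68 that were not called on all arrays (limma, adjusted p = 0.81, 0.0574 and 0.0823). With D493N replicate 1 left out, the D493N value was -0.23. With only the control and E728Q arrays fitted, the E728Q value was called (limma, adjusted p = 0.000218). Cpr47Ef had a second probe set, with a mean of 35.8, that was under the mark and not among those tested. It read 46.4 and 58.7 in control heads and 3.36 and 9.16 in wild-type EYA heads. In D493N heads it read 18.1 and 36.3, and in E728Q heads 57.5 and 57.2. With no filter on low values it was called with wild-type EYA. The expressed probe set of Cpr47Ef read 408 and 443 in control heads and 381 and 428 in wild-type EYA heads. D493N heads had 197 and 369.9 and E728Q heads 507 and 398, with no call on all arrays. Its D493N difference was -0.64, with -0.22 without replicate 1 and -1.07 without replicate 2.

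TwdlG and Cpr73D varied little. TwdlG read between 322 and 413 on the 8 arrays, with log2 differences from control of 0.13, 0.13 and -0.06. Cpr73D read between 618 and 804, with -0.16, -0.15 and 0.06. None of these was called, and no test for a lack of change was made.

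Comparing the transgenes with each other asks whether the phosphatase mutants differ from wild-type EYA or from each other in these genes. Wild-type EYA against D493N called 1 of 38 members (2.63%), where 1.16% of all tested probe sets were called. The gene was Cpr49Af, higher with wild-type EYA by a log2 difference of 0.90 (SE 0.17, limma, adjusted p = 0.0471), with signals of 173 and 142 against 70.5 and 85.4. Without any single array other than D493N replicate 2 that call was lost, and the adjusted p over the alternatives ranged from 0.0153 to 0.294.

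Wild-type EYA against E728Q called 0 of 38 members, where 0.702% of all were called. At an unadjusted p under 0.05 there were 4, and the smallest adjusted p was 0.222. D493N against E728Q also called 0, where 0.169% of all were called, with 7 at an unadjusted p under 0.05 and a smallest adjusted p of 0.0594, that of Cpr49Af (log2 difference -1.07). Without D493N replicate 1, wild-type EYA against E728Q called 3 members (2.82% of all), Cpr49Ae (log2 difference 0.57), Cpr62Bc (0.65) and Cpr72Ec (1.07), all higher with wild-type EYA. D493N against E728Q then called Cpr49Ae and Cpr72Ec (0.559% of all), and wild-type EYA against D493N called Cpr49Ag in place of Cpr49Af (2.11% of all). Without D493N replicate 2, wild-type EYA against D493N called 14 members (9.08% of all) and D493N against E728Q 15 (9.72% of all). Counts between D493N and the other transgenes thus differed by more than 1.5 times with the array left out.

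Genes that act with the Cpr and Twdl proteins were read in the same fit. Of 26 chitin synthesis and modification genes on the array 21 were tested. In wild-type EYA heads 1 was higher and 6 were lower. The D493N heads had 1 higher and 14 lower, and the E728Q heads 1 and 9. These are 33.3%, 71.4% and 47.6% of the 21, beside 22.4%, 28.0% and 23.5% of all tested probe sets, with median log2 differences of -0.61, -0.82 and -0.55. Leaving out D493N replicate 1 gave 2 higher and 13 lower, 1 and 14, and 1 and 15. The 6 genes lower with wild-type EYA became 2 without any one control or wild-type array, the 14 with D493N became 8 without control replicate 1, and the 9 with E728Q became 2 or 3 without a control array and 5 or 2 without an E728Q array. Without a control, wild-type or E728Q array, fewer of all tested probe sets were called against control too. Without D493N replicate 1, more of all were called with wild-type EYA and with E728Q. Such changes in count are thus not particular to this list or to those below. On all 8 arrays the gene that was higher was Hexo2, a hexosaminidase, an enzyme class that trims chitin oligomers. It read 1732 and 1707 in control heads, 8029.8 and 6761 in wild-type EYA heads, 11180.2 and 8169.9 in D493N heads, and 6627 and 6398 in E728Q heads, with log2 differences of 2.15, 2.43 and 1.90 (limma, adjusted p = 3.39e-05, 1.39e-05 and 6.63e-05).

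Both chitin deacetylase genes named by rule, Cda4 and verm, were lower. Cda4 read 713 and 527 in control heads, 308 and 371 in wild-type EYA heads, 52.0 and 257 in D493N heads, and 264 and 220.3 in E728Q heads, and was called with D493N (log2 difference -2.23, limma, adjusted p = 0.00953). Leaving out D493N replicate 1, that difference was -1.25, beside -0.83 with wild-type EYA and -1.32 with E728Q. For verm, vermiform, the log2 differences were -0.89 (not called), -2.19 (limma, adjusted p = 0.00241) and -1.39 (limma, adjusted p = 0.0258), and the D493N value was -1.47 without replicate 1. The chitin synthase gene kkv and the chitinase gene Cht5 were picked after their values were seen. The signals of kkv were 1191 and 1049 in control heads, 624 and 778 in wild-type EYA heads, 122 and 634 in D493N heads, and 637 and 441 in E728Q heads, and on all arrays only the D493N difference was called (-1.96, limma, adjusted p = 0.0282). Without D493N replicate 1 it was -0.86, beside -0.66 with wild-type EYA and -1.09 with E728Q. Cht5 was called lower with all 3 transgenes, by -0.95, -2.18 and -1.78 (limma, adjusted p = 0.041, 0.000544 and 0.00202).

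**Figure D5:**
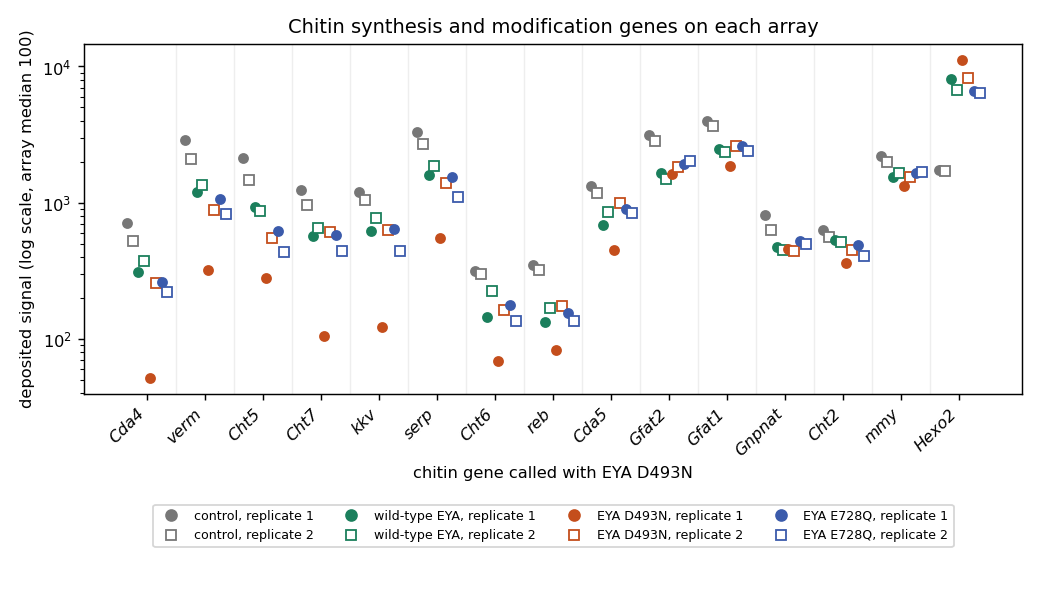
Deposited signal (vertical axis, log scale, array median 100) of the 15 chitin genes called with D493N on each of the 8 arrays; filled circles are replicate 1, open squares replicate 2, and colours mark the groups. Control arrays lie above the arrays with a transgene for the 14 genes called lower and below them for Hexo2, and D493N replicate 1 has the lowest signal for most of the former.

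Of the other cuticle protein genes, outside the Cpr and Twdl families, 16 were tested. With wild-type EYA 2 were higher and 3 lower (31.2% called, 22.4% of all), with D493N 1 and 5 (37.5%, 28.0% of all), and with E728Q 1 and 5 (37.5%, 23.5% of all). Vajk1, a cuticle protein gene, read 445 and 397.5 in control heads, 246 and 277 in wild-type EYA heads, 133 and 154 in D493N heads, and 206 and 145 in E728Q heads, with log2 differences of -0.65, -1.47 and -1.23, all called (limma, adjusted p = 0.025, 0.000293 and 0.00103). The chitin-binding obst-B was called lower with D493N (-1.67) and E728Q (-1.18). Its relative obst-J was called higher with all 3 (1.50, 1.38 and 1.31) at signals of 4.13 to 68.1, where the size depends on the pseudocount. Leaving out D493N replicate 1, the counts were 3 higher and 8 lower, 0 and 5, and 1 and 10. With wild-type EYA none was called without control replicate 2 or wild-type replicate 1 and 2 were without control replicate 1 or wild-type replicate 2. With D493N 4 were called without either control array. With E728Q 2 were called without either control array or E728Q replicate 2, and 3 without E728Q replicate 1.

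In the tanning and pigmentation list 19 genes were tested, and 1 was higher and 4 lower in heads with wild-type EYA. In D493N heads 2 were higher and 7 lower, and in E728Q heads 2 and 5. These are 26.3%, 47.4% and 36.8%, beside 22.4%, 28.0% and 23.5% of all tested probe sets. The gene e (ebony), whose enzyme conjugates dopamine for cuticle tanning, was called lower with all 3 (log2 differences -0.63, -1.38 and -1.01). The laccase gene stw (straw) was called lower with D493N (-1.23) and E728Q (-0.91). PPO1, a prophenoloxidase of blood cells, was called higher with all 3 (1.11, 0.89 and 1.04). Without D493N replicate 1 the counts were 2 and 7, 1 and 6, and 3 and 6. Of 13 moulting hormone response genes 1, 2 and 2 were called higher and 0, 2 and 1 lower, in all 7.69%, 30.8% and 23.1%, and without either control array 0 were called with wild-type EYA or E728Q. Eip93F, an ecdysone-induced transcription factor, was higher with all 3 (0.48, 0.64 and 0.51), Hr96 with D493N (0.63) and EcR, the ecdysone receptor, with E728Q (0.72). The 2 genes called lower with D493N and the 1 with E728Q are not among these named genes. Of 20 genes of the apical matrix and cuticle barrier 3 were higher with each transgene and 4, 3 and 4 lower, in all 35%, 30% and 35%. For this list and the moulting hormone list, the shares of all tested probe sets were again 22.4%, 28.0% and 23.5%. Among the apical matrix and cuticle barrier genes, Cyp4g1, the oenocyte enzyme that makes cuticular hydrocarbons, was lower by -2.45, -2.12 and -2.22. The gene snsl, of a chitin-binding barrier protein, was lower by -1.67, -1.51 and -1.20. Osi2 was higher by 1.71, 2.30 and 2.49, from control signals of 51.7 and 13.2.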

How the data were processed

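Per the labels, biotin-labelled cRNA was made from 2 µg of total RNA. The deposited table holds 1 linear intensity per probe set and array, and each array has a median of 100. The submitters' processing notes name GCOS, with no version or summary method in the sources used here. Of 18952 probe sets, 183 controls were left out. The array annotation names exactly 1 gene on 13647 probe sets and several on 402, leaves 4903 unnamed, and 13544 were matched to a current symbol, all 89 members among them. A further 4 probe sets with several symbols, 1 of them a Cpr name, were not used. Gene neighbours and chromosome arms came from RefSeq annotation, without coordinates, since the array's build is not named.

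The trimmed means of the arrays differed by 11.5%, above a tolerance of 5%, so intensities were quantile normalized, and 17.5 (the 25th percentile) was added before log2. The upper 60% by mean, 11261 probe sets with means from 38.1, were tested in limma 3.58.1 (R 4.3.3) with a coefficient per group, 4 residual and 4.76 prior degrees of freedom, a variance trend and no replicate block. Tests were two-sided in 6 comparisons and an F-test. Signals in the text are deposited values, log2 differences are of normalized values, and the number of arrays limits the precision. The script was tested on simulated data.

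Named were the expressed members, the members called in any comparison, the 3 on each side of the expression mark and up to 3 called genes of largest change per list. Same-numbered replicates did not deviate together (correlations from -0.14 to 0.09), so numbers were not taken as pairs. Members and lists were chosen with earlier results of these data known. Alternatives covered normalization, pseudocount, filter, variance trend, replicate block, the arrays fitted and each array left out.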

Additional observations from a re-analysis of the deposited data

Results flagged for a closer look

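Cpr49Af, a cuticle protein gene at 49A, differed between transgenes in their effect against the shared controls. It was 173 and 142 with wild-type EYA and 70.5 and 85.4 with D493N, a log2 difference of 0.8965 (0.90, limma, adjusted p = 0.0471). The adjusted p ranged from 0.0153 to 0.294 over 16 alternatives, and the call held in 3 of them.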

How the results depend on the processing

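With 2 arrays a group, the calls depended mostly on which arrays entered the fit. Leaving out each array in turn, the members called ranged from 3 to 14 with wild-type EYA (10 on all arrays), from 7 to 20 with D493N (12) and from 4 to 16 with E728Q (5) against control. The share of all probe sets called moved too, from 12.5% to 30.4%, 16.6% to 33.2% and 13.1% to 31.2%. They ranged from 0 to 14 for wild-type EYA against D493N (1), from 0 to 3 for wild-type EYA against E728Q (0), from 0 to 15 for D493N against E728Q (0) and from 6 to 21 in the F-test (10), where all probe sets called reached at most 9.08%, 2.84%, 9.72% and 37.2%. Calls over the genes of the 5 other lists ranged from 10 to 49 with wild-type EYA (25), from 26 to 51 with D493N (40), from 14 to 49 with E728Q (33), from 0 to 28 for wild-type EYA against D493N (1), from 0 to 4 for wild-type EYA against E728Q (0) and from 0 to 25 for D493N against E728Q (0). The lone array of a group is then taken to vary like the other groups. With only the arrays of the groups compared, E728Q against control had 16 members called (29.2% of all probe sets), wild-type EYA against E728Q 2 (2.04%) and wild-type EYA against D493N 0 (0.151%), and the other lists had 49 calls with wild-type EYA against control, 3 for wild-type EYA against E728Q and 0 for wild-type EYA against D493N.

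Wild-type EYA against D493N had 0 members called on deposited values with no quantile normalization, with a pseudocount at the 50th percentile, with no filter, with no variance trend and with the replicate block. Without the trend the other lists had 21 calls with E728Q and 0 for wild-type EYA against D493N. With the replicate block, members called were 8, 12 and 5 against control, and the other lists had 1 call for wild-type EYA against E728Q. The block moved no other count by over 1.5 times. Chosen after seeing the data, a block with the E728Q numbers crossed gave 1 call for D493N against E728Q.

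Of 28 called results 380 of 446 alternatives kept the call, 66 lost it and 0 turned direction. Cpr67B, TwdlT and Cpr51A in all 3 comparisons with control, Cpr62Bb with D493N and E728Q, and Cpr47Ee, Cpr11B and Cpr49Af with D493N were called under each alternative. Of 1756 alternatives of 110 results not called, 97 became calls, 95 of them without a D493N array or with only the groups compared. The expressed count was 22 with any array left out, and from 17 to 32 under the other marks for expression. The causes were not tested. Low signals limit the 67 members under the mark, of which 51 were not tested.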
